A study of Mus musculus with 12 samples.

Results

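The nuclear genes for the subunits of respiratory complexes II, III, IV and V were followed in mouse heart RNA. Members were all genes of the deposited expression table whose symbols are those of the Sdh, Uqcr, Cyc1, Cox4 to Cox8 and Atp5 families, and 49 of the 55487 genes in the table met this rule. Complex II had 4 members, complex III had 9, complex IV had 19 and complex V had 17. A gene was tested where its FPKM (sequenced fragments scaled to transcript length and library size) was at least 1 in at least 3 libraries. This held for 46 members. Cox6c2 and Cox8c were listed at 0 in all 12 libraries, and Cox7b2 did not exceed 0.29 FPKM.

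Complex II, succinate dehydrogenase, passes electrons from succinate to ubiquinone. Complex III passes them on to cytochrome c, and complex IV passes them to oxygen. Complexes III and IV pump protons across the inner mitochondrial membrane, and complex V, the ATP synthase, makes ATP as protons flow back. Heart muscle depends on this pathway for most of its ATP, and several complex IV subunits exist as a muscle isoform and an isoform found in most tissues.

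All 12 hearts came from wild-type mice, with 3 libraries in each of 4 groups. In the I/R+B12 group, mice drank water with vitamin B12 at 50 mg/L for 7 days. The left anterior descending coronary artery was then closed for 45 min and reopened for 24 h of reperfusion. The I/R group had the same ischemia and reperfusion on normal water. The Sham+B12 group had B12 and the operation without closing the artery, and the Sham group had that operation on normal water. Water intake was given as 4 mL per day. Strain, age and the sampled region of the heart were not given in the sources used here. The study asked how B12 bears on injury of the heart by ischemia and reperfusion. P-values measure the spread between these libraries.

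The tissue label was checked against 13 cardiomyocyte genes such as Myh6 and Tnnt2, and all of them were expressed in each group. Their summed level was 44587 to 63528 FPKM in I/R+B12, 41149 to 57446 in I/R, 59849 to 66235 in Sham+B12 and 58104 to 65014 in Sham. The summed level of 8 neutrophil genes was 98.6 to 1972 FPKM in I/R+B12, 15.1 to 1248 in I/R, 1.11 to 35.7 in Sham+B12 and 6.76 to 65.0 in Sham. The summed level of 8 fibroblast genes was 371 to 449 FPKM in I/R+B12, 778 to 826 in I/R, 436 to 555 in Sham+B12 and 536 to 815 in Sham. That of 9 macrophage and monocyte genes was 217 to 551 FPKM in I/R+B12, 703 to 1041 in I/R, 406 to 712 in Sham+B12 and 374 to 805 in Sham. Both sums were lower in every I/R+B12 library than in every I/R library. Of 7 skeletal muscle genes, Myh4 was listed at 0 throughout, and 2 had at least 1 FPKM in at least 3 libraries. These were Tnni2 (1.83 to 5.34 FPKM) and Mylpf (0.75 to 4.0 FPKM). Of 6 fat genes, Ucp1 of brown fat did not exceed 0.03 FPKM, and 1 gene, Cidea, had 21.8 to 34.4 FPKM. Some libraries stood apart from their groups. The library labelled I/R 3 had 15.1 FPKM of neutrophil genes and, across all tested genes, lay closest to Sham 2 (r = 0.982). The library labelled Sham 3 lay closest to I/R+B12 1 (r = 0.969), and its Nppa, a natriuretic peptide gene abundant in atria, was at 3157 FPKM. Among the other atrial genes in Sham 3, Myl4 had 3.41 FPKM, and Myl7, Sln and Bmp10 were listed at 0. The library I/R+B12 1 lay closest to I/R 1 (r = 0.979), while I/R+B12 2 lay closest to I/R+B12 3 (r = 0.947). The library I/R+B12 3 lay closest to Sham 3 (r = 0.955), and within its group it had the lowest neutrophil sum and the highest cardiomyocyte sum. In bulk tissue, fewer cardiomyocytes and less RNA per cardiomyocyte cannot be told apart. The files give no counts, and a depth of 24.5 to 28.25 M fragments per library was estimated from the steps between low values. At that depth, a gene with a transcript of 1000 nt and a level of 100 FPKM rests on 1788 to 2090 fragments.

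The subunit genes were abundant in the heart. Together they made up 6.08% ± 0.760 of all summed FPKM in I/R+B12, 5.75% ± 0.172 in I/R, 6.63% ± 0.200 in Sham+B12 and 6.50% ± 0.225 in Sham (SD, n = 3 each). Of the 49 members, 43 had a mean above 100 FPKM. The highest was Atp5b, the catalytic beta subunit of ATP synthase, with a mean of 5845 FPKM over the 12 libraries. In complex IV the highest mean was that of Cox4i1 (3315 FPKM), the usual form of subunit 4. The highest mean in complex III was that of Uqcr11 (1758 FPKM), and in complex II that of Sdhb (910 FPKM), the iron-sulfur subunit. The lowest tested members were all isoforms: Cox4i2 (21.1 FPKM), Atp5g2 (16.7 FPKM) and Cox6b2 (5.07 FPKM). Of the tested members, 20 have transcripts shorter than 600 nt, for which the level per length depends strongly on how fragment size enters the effective length, so the order among short members is uncertain. Genes of this kind often have near-identical pseudogenes, and the handling of fragments that match several places is not given in the sources used here.

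**Figure D1:**
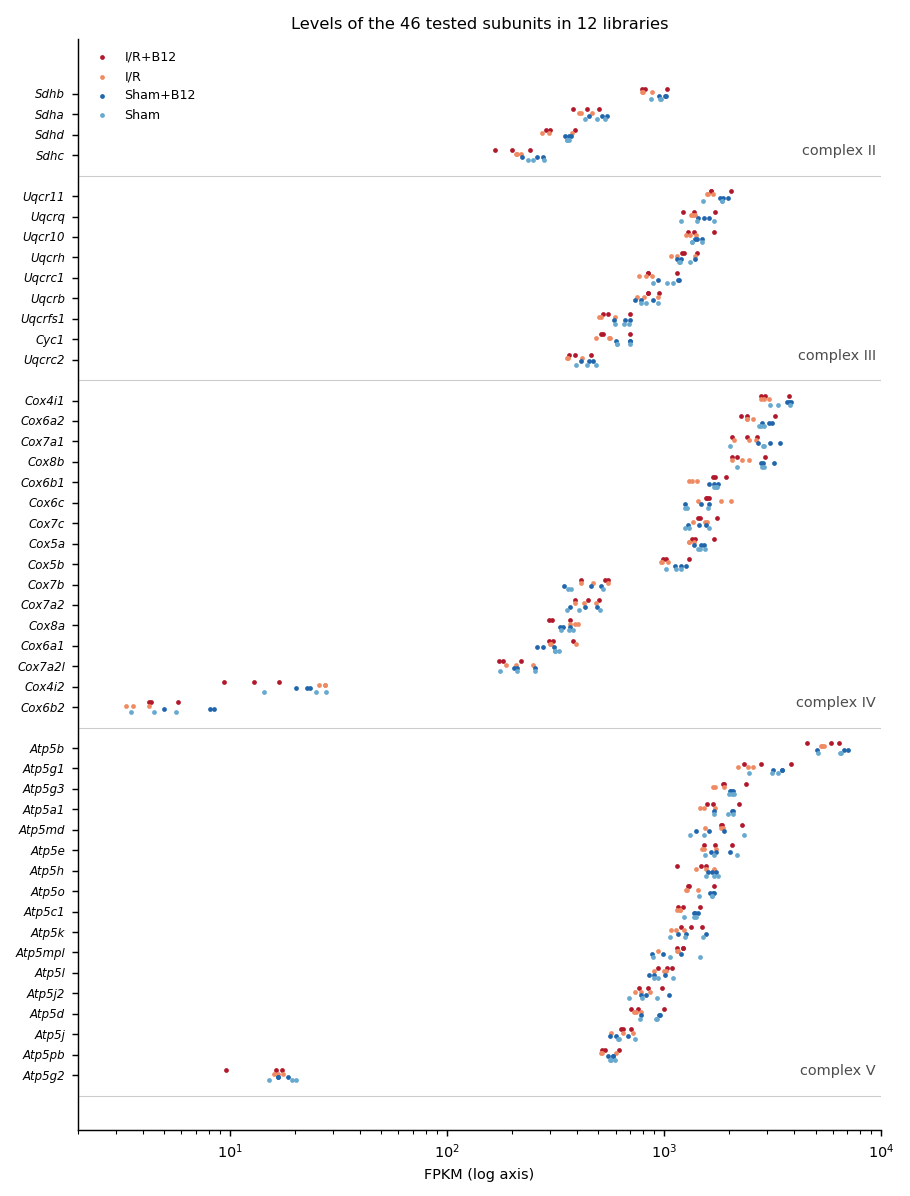
FPKM (log axis) of the 46 tested subunits in each of the 12 libraries, by complex, with 1 point per library coloured by group. Apart from Cox4i2, Cox6b2 and Atp5g2, every tested subunit lies above 100 FPKM, and points of the 4 groups largely overlap.

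Complex IV holds isoform pairs of which one form is typical of heart and skeletal muscle. Promoter windows of 3 such pairs are shown. The ratios Cox6a2 over Cox6a1 and Cox8b over Cox8a gave the only differences among members that passed a test. Cox7a1 over Cox7a2 narrowly missed the threshold in the I/R comparison. RefSeq sequences on GRCm38.p6, from 250 bases before to 50 bases after the gene's start, were found for 36 of the 49 members. There was none for Cox6a2 (chr7:128205435-128206387, minus strand), so Cox6a1 stands alone. Cox6a1 is at chr5:115348909-115349208 on the minus strand, Cox7a1 at chr7:30183921-30184220 on the plus strand, Cox7a2 at chr9:79759804-79760103 on the minus strand, Cox8a at chr19:7217567-7217866 on the minus strand and Cox8b at chr7:140900397-140900696 on the minus strand. Capitals mark matches, on either strand, to the motif letters given after the sequences.
Cox6a1: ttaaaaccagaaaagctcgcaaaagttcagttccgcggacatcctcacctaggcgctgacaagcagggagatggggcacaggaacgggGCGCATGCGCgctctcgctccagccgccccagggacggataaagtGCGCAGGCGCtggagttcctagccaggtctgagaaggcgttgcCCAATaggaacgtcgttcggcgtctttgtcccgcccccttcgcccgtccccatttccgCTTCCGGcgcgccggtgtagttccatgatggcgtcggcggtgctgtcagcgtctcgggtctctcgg
Cox7a1: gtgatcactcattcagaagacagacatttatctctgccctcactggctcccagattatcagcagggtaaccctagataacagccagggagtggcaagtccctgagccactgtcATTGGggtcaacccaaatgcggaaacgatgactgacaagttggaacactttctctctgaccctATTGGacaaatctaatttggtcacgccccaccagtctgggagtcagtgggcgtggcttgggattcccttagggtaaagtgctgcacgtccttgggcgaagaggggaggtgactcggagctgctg
Cox7a2: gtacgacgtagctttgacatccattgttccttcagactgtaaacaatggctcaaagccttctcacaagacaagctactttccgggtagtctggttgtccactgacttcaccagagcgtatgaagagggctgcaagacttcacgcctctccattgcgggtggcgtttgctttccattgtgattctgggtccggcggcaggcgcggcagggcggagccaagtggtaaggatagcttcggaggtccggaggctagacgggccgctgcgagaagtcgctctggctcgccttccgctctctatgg
Cox8a: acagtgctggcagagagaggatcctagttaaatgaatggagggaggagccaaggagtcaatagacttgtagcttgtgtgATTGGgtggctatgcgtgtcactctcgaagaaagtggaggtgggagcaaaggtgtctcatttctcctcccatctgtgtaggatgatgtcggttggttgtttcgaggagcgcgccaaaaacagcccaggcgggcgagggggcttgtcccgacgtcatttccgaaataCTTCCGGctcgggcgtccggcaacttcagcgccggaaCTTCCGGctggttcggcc
Cox8b: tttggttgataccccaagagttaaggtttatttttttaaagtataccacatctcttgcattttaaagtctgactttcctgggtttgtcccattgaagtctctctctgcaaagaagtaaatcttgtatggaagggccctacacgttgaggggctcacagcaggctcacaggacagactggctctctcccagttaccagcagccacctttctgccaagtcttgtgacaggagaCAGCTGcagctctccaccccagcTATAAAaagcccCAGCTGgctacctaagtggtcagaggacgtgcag

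In all, 8 motifs were searched on both strands in all windows, and none of them holds another. The NRF1 motif (GCGCA, any base, then GCGC) was in 10 of 36 members (27.8%), against 5.2% of all 27025 promoters. It was in 2 of 3 windows of complex II, 1 of 5 of III, 1 of 13 of IV (7.7%) and 6 of 15 of V. The ETS motif CCGGAAG was in 13 members (36.1%), against 9.9% of all promoters. ERR (AAGGTCA) was in 5 members (13.9%) and 5.4% of all promoters, YY1 (AAGATGGC) in 3 (8.3%) and 3.2%, and CCAAT in 20 (55.6%) and 41.1%. The E-box CAGCTG was in 2 members (5.6%), against 18.3% of all promoters. The letters TATAAA of the TATA box were in 4 members (11.1%), against 15.7%. The MEF2 motif of CTA, 4 bases of any kind and TAG was in 1 member (2.8%), against 4.2%. With so few members, the TATA and MEF2 counts were near the share of all promoters. Members held a median of 19 CpG pairs, against 7 over all promoters. The NRF1 and ETS letters hold CpG pairs themselves, and the promoters compared were not matched for CpG content. The windows with the fewest CpG pairs were those of Cox8b (2), Cox7b (5) and Cox7a1 (7), of which Cox7b is no muscle form. Cox8b had a TATA match, as had Cox7b2, Atp5l and Atp5md, and 2 E-box matches, and Cox7a1 and Cox7b each had 2 CCAAT matches. Their partners Cox8a and Cox7a2 had 19 and 20 CpG pairs, and Cox8a had 2 ETS matches. Cox6a1 had 32 CpG pairs with 2 NRF1 matches. These matches describe the letters in the windows and nothing about binding.

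Cox6a2, the muscle form of subunit 6a, was far above its partner in every library. Cox6a2 had 2260, 2411 and 3258 FPKM in I/R+B12, 2419, 2405 and 2565 FPKM in I/R, 3147, 2824 and 3060 in Sham+B12, and 2886, 2736 and 2809 in Sham, each in the order of library 1 to 3. Cox6a1 had 295, 308 and 381 FPKM in I/R+B12, 393, 301 and 301 FPKM in I/R, 262, 312 and 279 in Sham+B12, and 315, 316 and 330 in Sham. The Cox6a2 over Cox6a1 ratio averaged 8.01 ± 0.473 in I/R+B12, 7.56 ± 1.24 in I/R, 10.7 ± 1.51 in Sham+B12 and 8.78 ± 0.332 in Sham (SD, n = 3 each). The ratio was lower in I/R than in sham hearts under each kind of water. Its log2 was lower by 0.41 in I/R+B12 against Sham+B12, and by 0.23 in I/R against Sham. Pooled over both kinds of water the difference was -0.32, with a two-sided exact permutation p = 0.005 within water groups, the smallest that 400 arrangements allow, and an adjusted p = 0.0467 over 14 ratio tests. Even this smallest p passes over 14 tests only when other ratio tests also have small p-values. The Cox8b over Cox8a tests below share this adjusted p, and none of these calls would have passed alone. The groups nearly touched, since the highest I/R library, at 8.52, lay just under the lowest Sham library and I/R+B12 3 just above it.

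Cox8b, the muscle form of subunit 8, had 2171, 2072 and 2916 FPKM in I/R+B12, 2056, 2288 and 2460 FPKM in I/R, 2790, 3205 and 2873 in Sham+B12, and 2821, 2889 and 2185 in Sham. Cox8a, the form of most tissues, had 304, 298 and 369 FPKM in I/R+B12, 403, 371 and 389 FPKM in I/R, 334, 342 and 370 in Sham+B12, and 383, 367 and 337 in Sham. The Cox8b over Cox8a ratio averaged 7.34 ± 0.506 in I/R+B12, 5.86 ± 0.667 in I/R, 8.49 ± 0.814 in Sham+B12 and 7.24 ± 0.695 in Sham (SD, n = 3 each). All 3 I/R libraries had a lower ratio than every other library, and the I/R+B12 libraries overlapped both sham groups. The log2 ratio was lower in I/R than in sham hearts by 0.26 (exact permutation p = 0.01, adjusted p = 0.0467). It was higher in B12 hearts than in normal-water hearts by 0.28 (exact permutation p = 0.01, adjusted p = 0.0467), with +0.33 among I/R hearts and +0.23 among sham hearts.

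Cox7a1, the muscle form of subunit 7a, had 2410, 2061 and 2675 FPKM in I/R+B12, 2103, 2463 and 2665 FPKM in I/R, 2713, 3444 and 3095 in Sham+B12, and 2868, 2896 and 2012 in Sham. Its partner Cox7a2 had 391, 446 and 504 FPKM in I/R+B12, 389, 428 and 488 FPKM in I/R, 370, 494 and 432 in Sham+B12, and 406, 507 and 358 in Sham. The ratio averaged 5.37 ± 0.771 in I/R+B12, 5.54 ± 0.188 in I/R, 7.15 ± 0.181 in Sham+B12 and 6.13 ± 0.806 in Sham (SD, n = 3 each). The I/R+B12 and Sham+B12 libraries did not overlap, and the I/R and Sham libraries did. Pooled over water, the log2 ratio differed by -0.28 in I/R against sham (exact permutation p = 0.015), which missed the threshold after adjustment (adjusted p = 0.0525). Without Sham 3 it passed (-0.31, adjusted p = 0.042).

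Summed levels of cell type markers also differed between the libraries. The cardiomyocyte sums were lower and the neutrophil sums higher in most I/R libraries, as given above. The fibroblast and macrophage sums were lower in all I/R+B12 libraries than in all I/R libraries. The part of these markers in the ratios was not tested. With Sham 3 and I/R 3 left out, the differences for I/R against sham were -0.38 for Cox6a2 over Cox6a1 and -0.33 for Cox8b over Cox8a, and the B12 difference for Cox8b over Cox8a was 0.27. Each then had an adjusted p of 0.0778 in the exact permutation test, for which fewer arrangements remain. Leaving out any single library kept the direction of all 3 differences, and 10 of the 12 omissions gave each of them an adjusted p above 0.05. Each kept its call without Sham+B12 3 or without Sham 3. Fewer arrangements remain in these tests too. Without I/R 2, Cox6a2 over Cox6a1 had an exact permutation p = 0.005 and an adjusted p = 0.07.

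**Figure D2:**
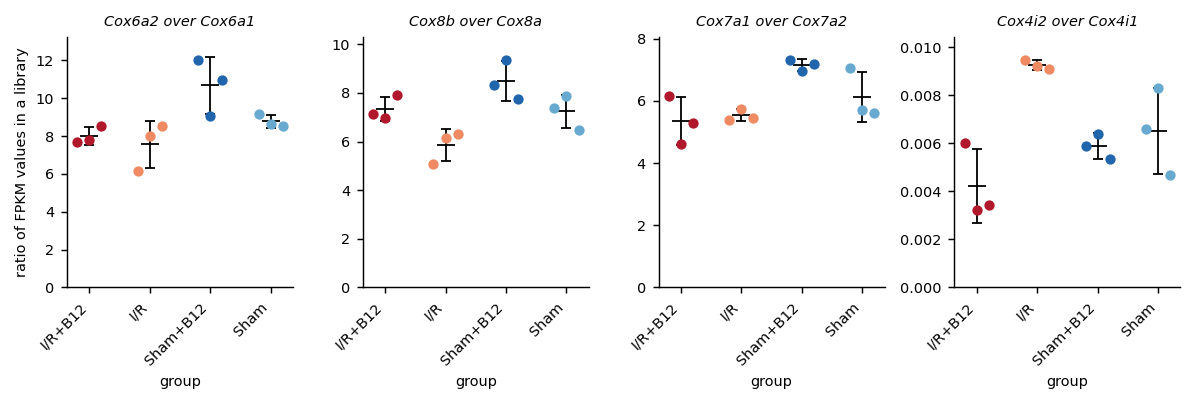
Ratio of FPKM values between isoforms of a complex IV subunit, 1 point per library, with the group mean and SD (n = 3) in black and the y axes starting at 0. The Cox8b over Cox8a ratio is lowest in the 3 I/R libraries (5.10 to 6.32), and the Cox4i2 over Cox4i1 ratio is highest in them.

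Cox4i2, a form of subunit 4 known for its use in lung and under low oxygen, had the largest difference of any member. It had 16.8, 9.44 and 13.0 FPKM in I/R+B12, 27.4, 25.9 and 27.6 FPKM in I/R, 22.7, 23.6 and 20.1 in Sham+B12, and 25.1, 27.9 and 14.5 in Sham. The I/R+B12 libraries were below all libraries of the I/R and Sham+B12 groups, and Sham 3 lay among them. The log2 difference was -1.02 ± 0.236 (SE) in I/R+B12 relative to I/R, with an adjusted p = 0.0788 by limma. Against Sham+B12 it was -0.75 ± 0.236 (SE), with an adjusted p = 0.0623. Neither passed. Markers of some other cell types were also lower in I/R+B12 than in I/R. For all genes, 71.8% were below 0 there and 18.8% were lower without overlap. All 8 fibroblast genes were below 0 with a median of -1.05, and 6 of them did not overlap. All 9 macrophage and monocyte genes were below 0 with a median of -1.29, and 6 did not overlap. Of 7 neutrophil genes tested, 6 were above 0 with a median of 0.79. The 7 endothelial genes were split, with 3 above 0 and 4 below. None of these genes passed, and their part in the Cox4i2 difference was not tested. The difference passed without I/R+B12 1 in both comparisons, with adjusted p = 0.00459 against I/R and 0.0176 against Sham+B12, and without Sham 3 in both, with 0.0435 and 0.0309. Of all 13001 genes, 3916 and 2490 were called lower in these comparisons without I/R+B12 1, and 56 and 541 without Sham 3. With 1 library left out, the difference against I/R was -1.21 to -0.82. Across 26 alternatives the adjusted p ran from 0.0038 to 0.269 against I/R, where 3 passed, and from 0.0176 to 0.203 against Sham+B12, where 6 passed.

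Cox4i1, the usual form, had 2804, 2934 and 3770 FPKM in I/R+B12, 2887, 2802 and 3038 FPKM in I/R, 3839, 3678 and 3776 in Sham+B12, and 3804, 3362 and 3095 in Sham. The I/R libraries lay below the Sham libraries, and I/R+B12 3 alone of its group reached the Sham+B12 range. The Cox4i2 over Cox4i1 ratio averaged 0.00422 ± 0.00155 in I/R+B12, 0.00927 ± 0.000202 in I/R, 0.00588 ± 0.000538 in Sham+B12 and 0.00651 ± 0.00181 in Sham (SD, n = 3 each). On the log2 scale it differed by -0.49 in I/R+B12 against Sham+B12 and by 0.53 in I/R against Sham. The B12 difference pooled over operations was -0.63 (exact permutation p = 0.035, adjusted p = 0.098). Without Sham 3 it passed (-0.73, adjusted p = 0.042).

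Cox6b1, the usual form of subunit 6b, which helps to hold the complex IV dimer together, was lowest in the I/R group. It had 1718, 1682 and 1935 FPKM in I/R+B12, 1342, 1306 and 1421 FPKM in I/R, 1703, 1785 and 1623 in Sham+B12, and 1761, 1743 and 1702 in Sham. All 3 I/R libraries were below every other library. The log2 difference was 0.39 ± 0.095 (SE) in I/R+B12 relative to I/R (limma, adjusted p = 0.0794, with 0.00409 to 0.279 over 26 alternatives and 0.0159 without I/R+B12 1) and -0.36 ± 0.095 (SE) in I/R against Sham (adjusted p = 0.378). Leaving out I/R+B12 1 gave 496 of all 13001 genes called higher in I/R+B12 relative to I/R. The interaction (the difference made by I/R in B12 hearts minus the same in normal-water hearts) was 0.42 ± 0.134 (SE) with an adjusted p = 0.387. Cox6b2, a form best known from testis, had 4.26, 4.34 and 5.77 FPKM in I/R+B12, 3.58, 3.33 and 4.27 FPKM in I/R, 8.14, 4.97 and 8.46 in Sham+B12, and 4.49, 3.52 and 5.69 in Sham. Its Sham+B12 libraries 1 and 3 were the highest, and its groups otherwise overlapped.

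In I/R against Sham, 8 of 16 tested complex IV subunits were above 0, where 69.1% of all genes were. Of these subunits, Cox6c had the largest difference. It had 1616, 1566 and 1584 FPKM in I/R+B12, 1440, 1826 and 2049 FPKM in I/R, 1247, 1613 and 1480 in Sham+B12, and 1274, 1600 and 1255 in Sham. The groups overlapped, and the log2 difference in I/R against Sham was 0.36 ± 0.153 (SE, adjusted p = 0.423 by limma). Cox5a and Cox5b, subunits near the catalytic core, had means of 1440 and 1107 FPKM. Cox7a2l, which takes part in joining complexes III and IV, had a mean of 211 FPKM.

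No member passed the test in any of the 7 comparisons fitted with limma at an adjusted p under 0.05. In I/R+B12 against Sham+B12, 0 of 46 members were called, where 10.4% of all 13001 tested genes were. In I/R against sham averaged over both kinds of water, 0 of 46 were called, where 10.1% of all tested genes were. In the other comparisons no gene at all was called, so the background was 0%. These were the interaction, the averaged B12 comparison, both B12 comparisons within an operation, and I/R against Sham. At an unadjusted p under 0.05, 0 members were higher and 4 lower in I/R+B12 against Sham+B12, with a background of 17.3% higher and 15% lower. In I/R against Sham, 1 was higher and 1 lower, while I/R+B12 relative to I/R gave 1 higher and 2 lower. The backgrounds were 10.6% higher and 1.04% lower in the first of these, and 3.9% and 24.6% in the second. In Sham+B12 against Sham, 1 was higher and 0 lower, with a background of 0.508% and 1.18%. In the interaction 1 was higher and 1 lower, with a background of 3.41% and 8.86%. In the averaged B12 comparison 2 were higher and 1 lower, with a background of 1.1% and 14.8%. In the averaged I/R comparison, 1 was higher and 9 were lower, with a background of 21.8% higher and 9.54% lower.

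These counts and their backgrounds depend on the libraries. When Sham+B12 1 or Sham+B12 3 was left out, 0 of all 13001 genes were called in I/R+B12 against Sham+B12. The averaged I/R comparison likewise had 0 genes called when I/R 1, Sham+B12 1, Sham+B12 3 or Sham 1 was left out. Without I/R+B12 3, 10 members were called lower in the averaged I/R comparison (Atp5c1, Atp5g1, Atp5o, Cox4i1, Cox6a2, Cox8b, Cyc1, Sdhb, Sdhc and Uqcrc1), and 3 were called lower in I/R+B12 against Sham+B12 (Cox4i1, Cox6a2 and Sdhc). Without this library, 525 of all 13001 genes were called lower and 1736 higher in the averaged comparison, and 524 lower and 1059 higher in I/R+B12 against Sham+B12. When limma estimated a weight for each library, 18 members were called in I/R against Sham, of which 17 were lower, while 878 of all 13001 genes were called lower and 3533 higher. In that fit the estimation of the weights stopped before reaching its tolerance. Without Sham 3 and I/R 3, only Cox4i2 was called in I/R+B12 against Sham+B12 and only Cox7a1 in the averaged I/R comparison, both lower. Of all genes, 588 were called lower in the first of these and 564 in the second.

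In direction, 35 of 46 members were below 0 in the averaged I/R comparison, where 43.3% of all tested genes were, with a median log2 difference of -0.14 for members and 0.05 for all genes. By complex the medians were -0.19 in II, -0.09 in III, -0.12 in IV and -0.11 in V. In I/R against Sham, 37 members were below 0, against 30.9% of all genes, and the median of the members was -0.15 where that of all genes was 0.13. In complex IV, 8 of 16 were below 0 with a median of -0.04. Relative to the median of all genes, that median was -0.17. The other counts below 0 were 4 of 4 in complex II, 9 of 9 in III and 16 of 17 in V. The I/R and Sham libraries did not overlap in 10 members, all lower in I/R, where 3.6% of all genes did so. No member was higher in all I/R libraries than in all Sham libraries, as 18.8% of all genes were. In I/R+B12 against Sham+B12, 31 members were below 0, where 51.9% of all genes were, with a median of -0.12 against -0.02 over all genes. Without overlap, 3 members were lower and 0 higher there, against 13.2% and 19.1% of all genes.

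Set against I/R, the I/R+B12 group had 37 of 46 members above 0 and 9 below, where 71.8% of all genes were below 0. The members' median was 0.10 and that of all genes -0.21. In the same comparison 11 of 13 cardiomyocyte genes were above 0 with a median of 0.17, and the fibroblast and macrophage genes were all below 0, as given above. The part of these markers in the members' shift was not tested. Without overlap, 1 member (Cox6b1) was higher and 2 were lower in I/R+B12, against 4.41% and 18.8% of all genes. Relative to the median of all genes, the members' median was 0.30 in this B12 comparison and -0.28 in I/R against Sham, and both use the I/R libraries. In 34 of 46 members the 95% interval of this B12 difference lay within 0.5 log2 of 0. In Sham+B12 against Sham, 13 members were below 0, where 67.9% of all genes were, with a median of 0.04 against -0.07 over all genes. Without overlap, 0 members were higher and 1 lower there, against 1.54% and 8.98% of all genes. In the interaction 17 members were below 0, where 63.7% of all genes were, and in the averaged B12 comparison 11 were, where 75.8% of all genes were. The interaction count was 2 of 4 in complex II, 1 of 9 in III, 11 of 16 in IV and 3 of 17 in V.

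**Figure D3:**
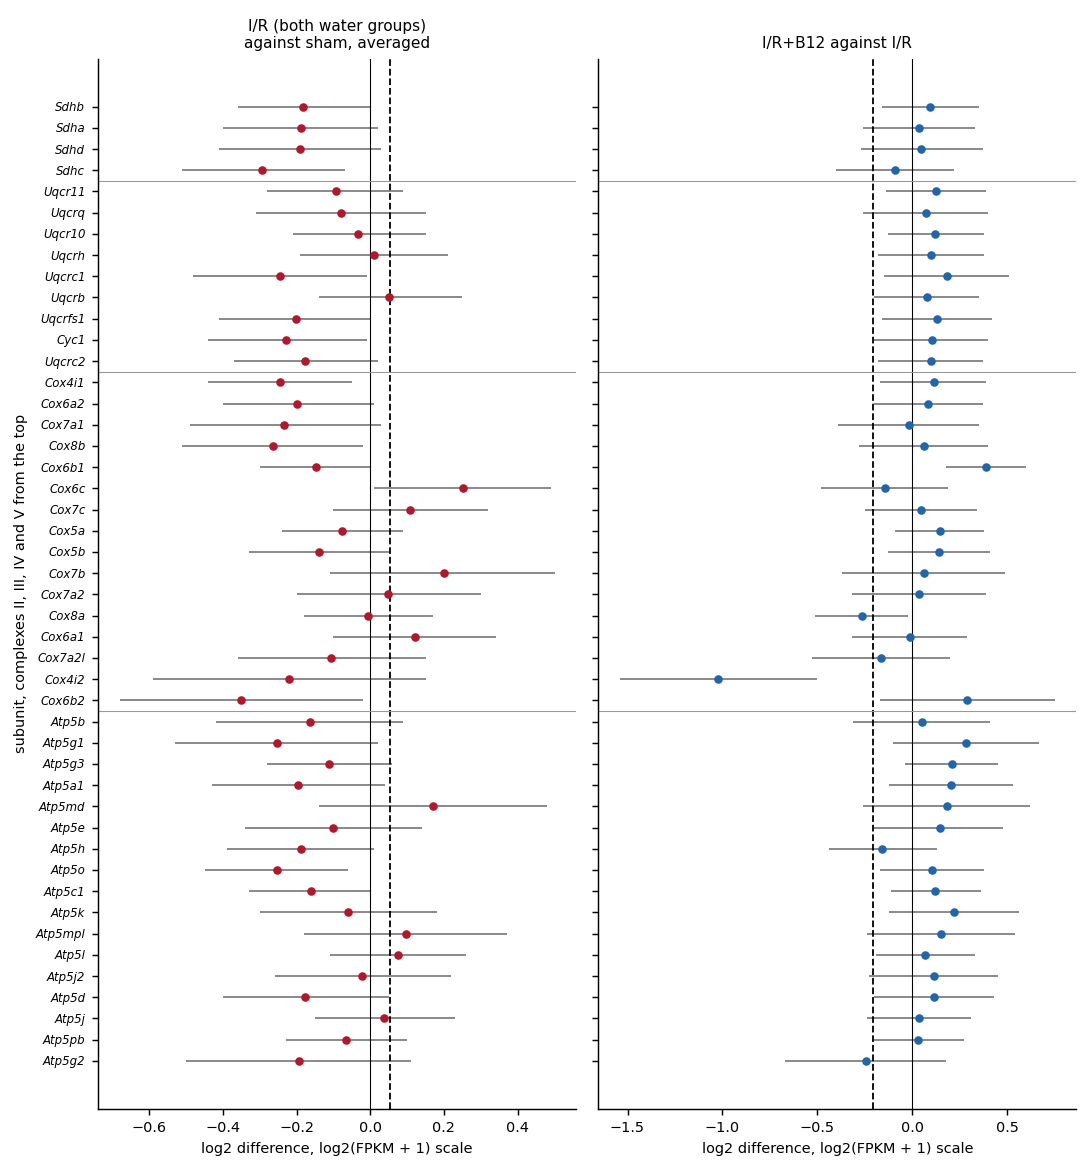
Log2 difference of each tested subunit (points) with its 95% confidence interval (lines) on the log2(FPKM + 1) scale, for I/R against sham averaged over both kinds of water (left) and for I/R+B12 relative to I/R (right). The dashed line is the median of all 13001 tested genes (0.05 on the left, -0.21 on the right), and most subunits lie left of it in the first panel and right of it in the second.

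Complex II had the lowest median of the 4 complexes in the averaged I/R comparison. Sdhc, which anchors complex II in the membrane, had 200.2, 167 and 242 FPKM in I/R+B12, 209.6, 211 and 220.1 FPKM in I/R, 279, 223 and 260.01 in Sham+B12, and 251, 237 and 279 in Sham. The I/R libraries lay below the Sham libraries, and I/R+B12 3 lay within the Sham+B12 range. Its averaged I/R difference was -0.29 ± 0.101 (SE), with an adjusted p = 0.0784 by limma. Sdhb had 798, 819 and 1033 FPKM in I/R+B12, 803, 790.4 and 878 FPKM in I/R, 1020.3, 953 and 1016 in Sham+B12, and 966, 969.6 and 875 in Sham. Its I/R and Sham groups overlapped through I/R 3 and Sham 3. The catalytic flavoprotein Sdha averaged 442 ± 61.7 FPKM in I/R+B12, 430.2 ± 32.2 in I/R, 505 ± 49.1 in Sham+B12 and 488 ± 51.6 in Sham (SD, n = 3 each). The anchor Sdhd averaged 326 ± 57.3 FPKM in I/R+B12, 315 ± 54.3 in I/R, 364 ± 12.5 in Sham+B12 and 362 ± 5.01 in Sham (SD, n = 3 each). All 4 genes were below 0 in each of the averaged I/R, the I/R against Sham and the I/R+B12 against Sham+B12 comparisons.

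Complex III joins redox and core subunits, which carry electrons and form its frame, to small accessory ones. The redox and core subunits (Cyc1, Uqcrfs1, Uqcrc1 and Uqcrc2) had log2 differences in the averaged I/R comparison of -0.25 to -0.18. The 5 small subunits had -0.09 to 0.05, and the difference between these kinds of subunit was not tested. The redox and core subunits also have the longer transcripts, of 1363 to 1896 nt against 405 to 547 nt. Cyc1, the cytochrome c1 subunit, had 514, 527 and 702 FPKM in I/R+B12, 558, 486 and 565 FPKM in I/R, 697, 602 and 697 in Sham+B12, and 696, 610.4 and 607 in Sham. Uqcrc1, a core subunit, had 849.6, 842 and 1152 FPKM in I/R+B12, 831, 773 and 879 FPKM in I/R, 1181, 936 and 1161 in Sham+B12, and 1098, 888 and 1036 in Sham. In both genes the I/R libraries lay below the Sham libraries, and I/R+B12 3 reached the Sham+B12 range. The averaged I/R difference was -0.23 ± 0.097 (SE) for Cyc1 and -0.25 ± 0.106 (SE) for Uqcrc1, with adjusted p = 0.137 and 0.14 by limma. The small subunit Uqcr11 had 1645, 1652 and 2045 FPKM in I/R+B12, 1589.8, 1594 and 1687 FPKM in I/R, 1813, 1974 and 1881 in Sham+B12, and 1847, 1857 and 1512 in Sham. Sham 3 was its lowest library, so its I/R and Sham groups overlapped.

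In complex V, Atp5o, the stalk subunit that confers oligomycin sensitivity, had 1303, 1299 and 1702 FPKM in I/R+B12, 1265, 1275 and 1433 FPKM in I/R, 1707, 1685 and 1627 in Sham+B12, and 1669, 1676 and 1455 in Sham. The I/R libraries lay below the Sham libraries, and I/R+B12 3 was among the Sham+B12 libraries. Its averaged I/R difference was -0.25 ± 0.088 (SE), with an adjusted p = 0.0811 by limma. Atp5h, the d subunit of the stalk, had 1489, 1155 and 1567 FPKM in I/R+B12, 1409, 1563 and 1705 FPKM in I/R, 1606, 1743 and 1675 in Sham+B12, and 1707, 1775 and 1565 in Sham. Its I/R+B12 libraries were all below the Sham+B12 libraries, with a log2 difference of -0.27 and an adjusted p = 0.179 by limma. Atp5b had 5903, 4579 and 6399 FPKM in I/R+B12, 5482, 5332 and 5324 FPKM in I/R, 6789, 5061 and 7055 in Sham+B12, and 6573, 5147 and 6491 in Sham. Library 2 was the lowest of both sham groups, and the groups overlapped.

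The membrane c-ring of complex V is encoded by 3 genes whose mature proteins are the same. Atp5g1 had 2340.2, 2792 and 3862 FPKM in I/R+B12, 2452, 2199 and 2586 FPKM in I/R, 3201, 3486 and 3486 in Sham+B12, and 3371, 3140.3 and 2460.3 in Sham. Atp5g3 had 1872, 1900.02 and 2387 FPKM in I/R+B12, 1681, 1729 and 1896 FPKM in I/R, 2027, 2045 and 2095 in Sham+B12, and 1993, 2097 and 2053 in Sham. Atp5g3 was lower in all I/R libraries than in all Sham libraries, and Atp5g1 overlapped through Sham 3. Atp5g2 had 17.4, 9.64 and 16.3 FPKM in I/R+B12, 16.03, 17.6 and 16.7 FPKM in I/R, 16.8, 16.7 and 18.5 in Sham+B12, and 19.3, 15.2 and 20.2 in Sham, and I/R+B12 2 was its lowest library. The Atp5g1 over Atp5g3 ratio averaged 1.45 ± 0.185 in I/R+B12, 1.37 ± 0.0934 in I/R, 1.65 ± 0.0642 in Sham+B12 and 1.46 ± 0.249 in Sham (SD, n = 3 each). It did not pass in the I/R comparison (difference -0.14, exact permutation p = 0.17, adjusted p = 0.297). Without Sham 3 it passed (-0.21, adjusted p = 0.0467).

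**Figure D4:**
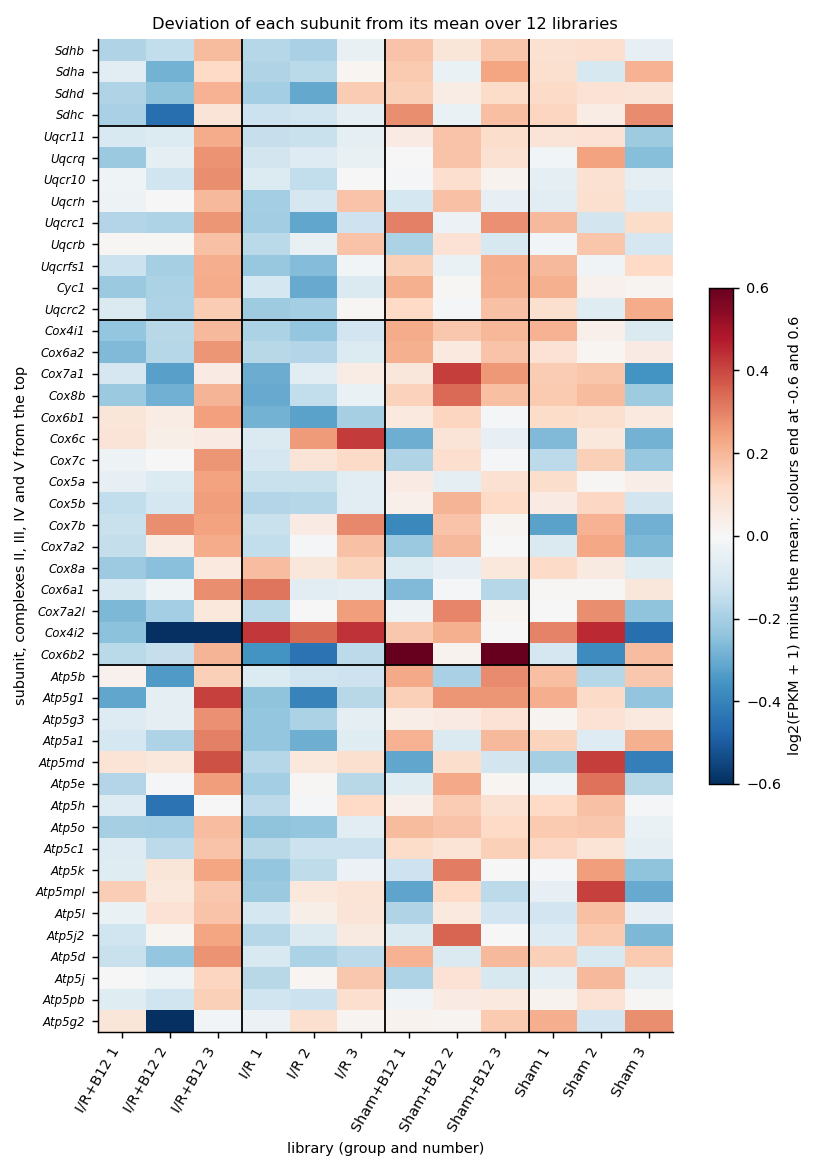
Deviation of each tested subunit from its mean over the 12 libraries, in log2(FPKM + 1), with libraries in columns and complexes separated by lines. Blue prevails in libraries 1 and 2 of the I/R+B12 and I/R groups, and I/R+B12 3 is red in most rows, being the highest of the 12 libraries in 19 members.

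Libraries of the I/R+B12 group stood apart from each other. The score of a complex, the mean deviation of its tested subunits, was 0.22 in I/R+B12 3 for complex III, against -0.11 in both I/R+B12 1 and 2. For complex II the scores were -0.16, -0.28 and 0.15 in I/R+B12 libraries 1 to 3, -0.17, -0.20 and 0.02 in I/R, 0.19, 0.01 and 0.17 in Sham+B12, and 0.11, 0.03 and 0.13 in Sham. Library 3 was the highest of its I/R and I/R+B12 groups in all 4 complexes. In those groups library 3 also had the highest cardiomyocyte sum and the lowest neutrophil sum, and the part of these in the scores was not tested. Sham 3 was the lowest Sham library in complexes III, IV and V and the highest in complex II.

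**Figure D5:**
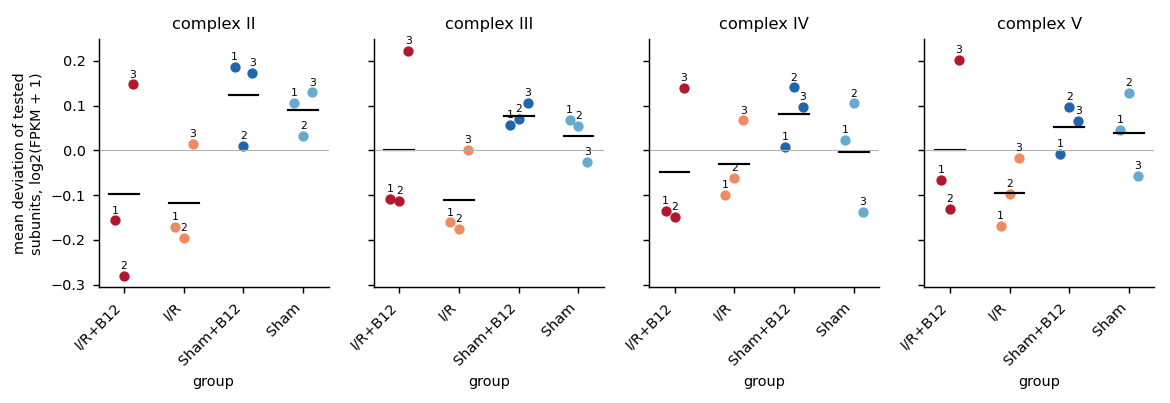
Score of each complex in every library (points, with the library number) and the group mean (black line), as the mean log2(FPKM + 1) deviation of the tested subunits. In complex III the score of I/R+B12 3 (0.22) is the highest, and I/R 1 and 2 are the lowest.

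Some genes that build or serve these complexes were called. In I/R+B12 against Sham+B12, 3.62% of all tested genes were called lower and 6.78% higher, and in the averaged I/R comparison 1.71% lower and 8.36% higher. Among 6 complex III assembly factors, Uqcc1 fell in I/R+B12 against Sham+B12, with a log2 difference of -0.78 ± 0.193 (SE, limma adjusted p = 0.0352), and the median of the 6 was -0.20. It also fell in the averaged I/R comparison, by 0.50 (adjusted p = 0.0438). Of 23 complex IV assembly factors tested, Surf1 fell by 0.56 (adjusted p = 0.0287), and 1 of 23 was called lower with a median of -0.23. Of 6 complex V factors, Atpaf1, which helps to assemble the F1 part, fell by 0.67 (adjusted p = 0.0405), with a median of -0.19. None of the 4 complex II assembly factors was called, and Sdhaf2 (-0.41, adjusted p = 0.102) and Sdhaf4 (-0.53, adjusted p = 0.195) had the smallest p-values. Without I/R+B12 1, Sdhaf2 was called lower (adjusted p = 0.0222), as were 2490 of all 13001 genes. Among 14 genes of cytochrome c and coenzyme Q, Coq10b rose by 0.71 (adjusted p = 0.0409), while 12 of the 14 were below 0 with a median of -0.36. Of the same list, in the averaged I/R comparison Coq9 fell by 0.45 (adjusted p = 0.0494). These calls were near the threshold: each kept its direction in all alternatives, but in I/R+B12 against Sham+B12 the call held in 20 of 26 alternatives for Surf1, 19 for Uqcc1, 16 for Atpaf1 and 13 for Coq10b. In the averaged comparison it held in 14 of 25 for Uqcc1 and 12 of 25 for Coq9. Without I/R+B12 2, the adjusted p was 0.0866 for Surf1, 0.107 for Uqcc1, 0.103 for Atpaf1 and 0.133 for Coq10b.

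Of the 5 mitochondrially encoded subunits of complexes III to V that were tested, mt-Atp8 rose by 0.37 in the averaged I/R comparison (limma adjusted p = 0.0351), and their median was -0.002. Its call held in 10 of 24 alternatives, and with quantile normalization the difference was 0.075 (adjusted p = 0.516). The mt-Atp8 gene overlaps mt-Atp6, and how shared fragments were assigned is not given in the sources used here. None of the 15 genes of the tricarboxylic acid cycle was called, and 14 of them were below 0 in I/R+B12 against Sham+B12 with a median of -0.20. Ogdh (-0.55, adjusted p = 0.111) and Idh3a (-0.33, adjusted p = 0.129) had the smallest p-values there. Without I/R+B12 3 both were called lower, with adjusted p = 0.0488 for Ogdh and 0.044 for Idh3a. For the 36 nuclear subunits of complex I, 0 were called, and the median was -0.13 in the averaged I/R comparison, beside -0.14 for complexes II to V.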

How the data were processed

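The deposited values are FPKM per gene, in 1 table made by the authors from poly(A)-selected, paired-end libraries of 12 hearts. HISAT2, StringTie and the build mm10 are named per the submitters' processing notes, and their versions and the annotation are not given in the sources used here. The deposited group means were not used. Values were analysed as log2(FPKM + 1), and 13001 genes with an FPKM of at least 1 in at least 3 libraries entered 1 fit over all groups in limma (version 3.58.1, R 4.3.3), whose variance prior followed mean expression. P-values are two-sided and adjusted by Benjamini-Hochberg over all tested genes of a comparison. Isoform ratios were compared by exact permutation within water or operation groups. Scripts were tested on simulated data. Coordinates come from GENCODE M21, on the files' build, with 55141 IDs found. Where a symbol repeated, the row of highest mean was kept. The low values lay within 0.15 of whole fragments in 75.7% to 84.5% of cases once 250 to 270 nt were taken off transcript lengths, and this gave the depth.

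Values in every library are given for both genes of each isoform pair, the highest member of each complex and the 2 members of each complex with the smallest p for I/R+B12 against Sham+B12 or against I/R. Cox6c was named after its values were seen. Members, lists and ratios were chosen with earlier results of these data known. Genes of other lists are named where called, otherwise the 2 with the smallest p. The alternatives tried were other pseudocounts, filters, scalings and fits, the replicate block, and leaving out libraries.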

Additional observations from a re-analysis of the deposited data

How the results depend on the processing

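Precision is limited by 3 libraries per group: the median 95% interval of a member in I/R+B12 relative to I/R reached 0.30 log2 on either side. Results were recomputed with other pseudocounts, filters, scalings and fits. Leaving out Sham 3 and I/R 3 together, removing the transcript-length trend, and running all alternatives for genes of the other lists were chosen after seeing the data. The compared groups alone could not be fitted for the interaction and the averaged effects. Fits not named here kept each count of called members and moved no complex median by more than 1 SD of the libraries' scores.

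With the replicate number as a block, 0 members were called in each of the 7 comparisons and each isoform ratio kept its side of the threshold. Of the other genes named, Ogdh was called in I/R+B12 against Sham+B12 with the block (adjusted p = 0.0431). The numbers were not treated as pairs, since deviations of same-numbered libraries had a mean r of 0.014 over 18 pairs (-0.412 to 0.391).

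In I/R+B12 against Sham+B12, 1 member (Cox4i2) was called with median-ratio scaling, quantile normalization, library weights or without Sham 3 and I/R 3. With library weights, 18 members were called in I/R against Sham, 5 for I/R+B12 relative to I/R, 2 in the interaction, 4 in the averaged I/R and 5 in the averaged B12 comparison, where 4411, 4325, 1838, 4736 and 3247 of all 13001 genes were called. In the averaged I/R comparison, 1 (Cox7a1) was called without Sham 3 and I/R 3. For the Cox4i2 calls, 1918, 1791, 3082 and 1659 of all genes were called in these fits. Median-ratio scaling removes the shift of the median gene. The medians of complexes II, III, IV and V were then -0.35, -0.25, -0.19 and -0.30 in I/R against Sham. They were 0.29, 0.35, 0.30 and 0.36 for I/R+B12 relative to I/R, 0.16, 0.25, 0.15 and 0.26 in the interaction, and 0.20, 0.25, 0.23 and 0.24 in the averaged B12 comparison. With library weights the median of complex III was 0.021 in I/R+B12 against Sham+B12 and 0.26 in the interaction, and in I/R+B12 relative to I/R the medians of II, III and IV were 0.22, 0.26 and 0.18. Quantile normalization gave -0.086 for complex IV in I/R+B12 relative to I/R. Without Sham 3 and I/R 3, complexes III and IV had -0.22 and -0.18 in I/R against Sham. The Sdhc difference in I/R+B12 relative to I/R, -0.09 as reported, was 0.16 with median-ratio scaling and 0.053 with library weights. The Cox4i2 over Cox4i1 difference in I/R against sham, 0.02 with all libraries, was -0.073 without Sham 3 and I/R 3. The isoform differences that passed were -0.38, -0.33 and 0.27 without them. The causes were not tested.

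Leaving out 1 library at a time gave 0 to 3 called members in I/R+B12 against Sham+B12, 0 to 2 in I/R+B12 relative to I/R, 0 to 10 in the averaged I/R comparison, and 0 to 1 in the interaction and the averaged B12 comparison. The highest of these counts arose without I/R+B12 3 for Sham+B12 as baseline (1583 of all genes called) and for the averaged I/R comparison (2261), and without I/R+B12 1 in the others (4412, 1830 and 2698). For Sham+B12 as baseline, 3836 were called without I/R+B12 1. The median of complex III ranged from -0.23 to -0.038 in I/R+B12 against Sham+B12, and that of complex IV from -0.066 to 0.12 in I/R+B12 relative to I/R. In the interaction, complex III ranged from -0.038 to 0.14, IV from -0.17 to 0.05 and V from -0.037 to 0.15. In I/R+B12 relative to I/R, Sdhb ranged from -0.026 to 0.16 and Sdhc from -0.22 to 0.042. The I/R difference ranged from -0.11 to 0.12 for Cox4i2 over Cox4i1, -0.38 to -0.25 for Cox6a2 over Cox6a1, -0.34 to -0.23 for Cox7a1 over Cox7a2, -0.30 to -0.21 for Cox8b over Cox8a, -0.21 to -0.086 for Atp5g1 over Atp5g3 and -0.19 to 0.016 for Atp5g2 over Atp5g3. The B12 difference ranged from -0.76 to -0.53 for Cox4i2 over Cox4i1 and 0.23 to 0.31 for Cox8b over Cox8a.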

Other observations

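Subunit levels also differed with transcript length in some libraries. Across the 46 tested members, Spearman's rho between transcript length and the deviation of a library from the gene's mean was 0.53 in Sham 3, 0.51 in Sham+B12 1, 0.43 in Sham+B12 3 and 0.37 in Sham 1. It was -0.50 in Sham+B12 2, -0.49 in Sham 2, -0.37 in I/R+B12 2 and, for I/R 2, -0.41. Each of the 4 libraries numbered 2 thus had its shorter subunit transcripts relatively higher. These points share a library and are a description. Over all tested genes with a length, rho was -0.19 in Sham+B12 2, -0.16 in Sham 2, 0.12 in Sham 3 and 0.14 in I/R+B12 1. After removal of each library's length trend, fitted over all tested genes, 0 members were called in the 7 comparisons, as without removal. The relation among the members was not fitted apart, so this does not show what length does to them.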
